A study of Mus musculus with 24 samples.

Results

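Day 6 of neural differentiation was compared between cells that received auxin and cells that did not, with 2 libraries in each group. These 4 libraries were taken by their column names from 24 libraries in 12 groups. All of them come from F123, a mouse embryonic stem (ES) cell line, in which the CTCF protein was fitted with a degron, so the control cells carry the tagged protein too. To deplete CTCF, a 500 mM auxin stock was added at 1 µl per ml, and the medium was renewed every 24 h. Control cells went through the same differentiation toward neural progenitors without auxin. Days 2 and 4 had the same design, and in the washout groups auxin was removed on day 4 or on day 6, with harvest 2 days afterwards. The labels do not say when auxin was first added to the differentiating cells, nor whether the 2 replicates of a group were separate cultures, so the p-values measure only the spread between these samples, which may be technical. Cells without the degron that received auxin were not analysed here, so an effect of auxin itself and an effect of CTCF loss cannot be told apart. The labels call every sample embryonic stem cells, day 6 included.

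CTCF is a zinc-finger protein that binds DNA and, together with the ring-shaped cohesin complex, sets the anchors of chromatin loops and the borders of topological domains. An auxin-inducible degron is a tag that leads the protein to be ubiquitinated and destroyed when auxin is present. During neural differentiation, ES cells shut off their pluripotency factors and turn on Sox1 and Pax6, which mark early neuroepithelium. Proneural factors such as Neurog2 then drive progenitors out of the cell cycle into neurons, which express Tubb3, Dcx and the Elavl RNA-binding proteins.

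The 4 day 6 libraries held 56016373 to 72048935 counted reads, and the 16 libraries of differentiating cells held 51053184 to 72048935. Levels are given as CPM, the count of a gene per 1000000 counts of the scaled library, and changes as log2 fold change of auxin over control with its standard error (SE). A gene rose or fell where the adjusted p of edgeR's quasi-likelihood test was below 0.05 over all 22587 genes tested, with the spread estimated from the 16 differentiation libraries. The 2 day 2 auxin libraries stood apart, with a chi-square per gene of 64.2 between replicates against 3.92 to 8.42 in the other differentiation groups. They are in the fit but not in the day 6 comparison. The day 6 replicates gave 6.39 in control and 4.65 in auxin.

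With auxin, 3159 genes rose on day 6, which is 14% of the genes tested, and 3429 fell, which is 15.2%. The median log2 fold change over all tested genes was 0.01. At a change of 2-fold or more, 947 genes rose and 1085 fell, and at 4-fold or more, 240 rose and 459 fell. Neural and neuronal genes made up most of the largest falls that were named, while pluripotency and germline genes were among those that rose. Estimating the spread from all 24 libraries, where ES replicates differ more, lowered the number of called genes from 6588 to 1564. Of the genes described below as having risen or fallen, Adm, Afp, Col1a1, Col3a1, Ctcf, Cyp1a1, Cyp1b1, Dlx3, Esco1, Esco2, Fas, H2-Q6, Hhip, Hmgcs1, Hoxa11, Magel2, Nes, Nqo1, Pantr2, Smc1a, Smc1b, Sox2, Sox17, Trib3 and Uhrf1 lost their call in that fit.

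**Figure D1:**
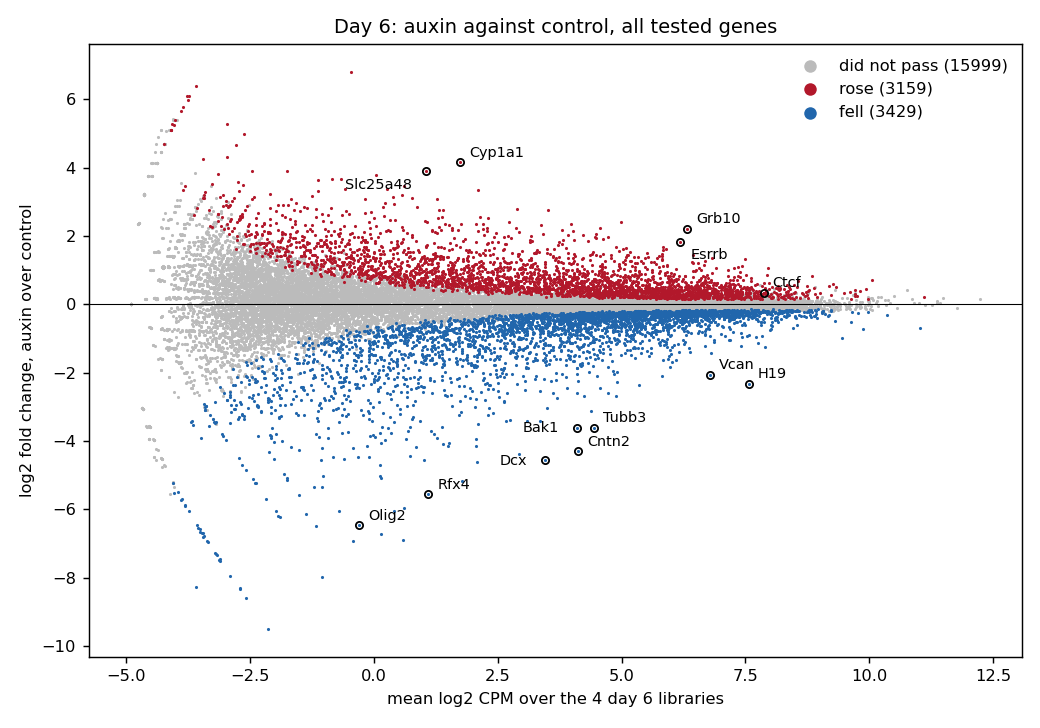
Each point is 1 of 22587 tested genes, with the mean log2 CPM of the 4 day 6 libraries on the horizontal axis and the log2 fold change of auxin over control on the vertical axis. Rfx4, Olig2, Dcx and Cntn2 are among the 459 genes that fell at least 4-fold, and Cyp1a1 among the 240 that rose as much.

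Ctcf mRNA was 207 and 208 CPM in control and 256 and 270 CPM in auxin libraries. The groups did not overlap, as for 67.9% of all tested genes, and auxin libraries were higher (log2 0.34, SE 0.085, adjusted p = 0.00542). The call was lost without auxin replicate 2, at adjusted p = 0.0522, and with all 24 libraries, at 0.193, over a range of 1.34e-07 to 0.193 across the alternatives tried. The degron acts on the protein, so this mRNA does not check the depletion. Exons of Ctcf overlap those of Agrp and Gm5914 on the other strand. Among 19 tested genes of CTCF and the cohesin machinery, 4 rose and 2 fell. The cohesin subunit gene Stag1 was at 192 and 185 CPM in control and at 290 and 300 CPM with auxin (log2 0.64, SE 0.071, adjusted p = 2.87e-06). Esco2 and Esco1, which encode cohesin acetyltransferases, rose by 0.53 and 0.41 on the log2 scale, and the cohesin core gene Smc1a fell by 0.26.

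Of the markers that define neural progenitors, Sox1 and Pax6 were much lower with auxin, and Nes and Sox2 differed little. Sox1, a transcription factor of early neuroepithelium, was at 14.7 and 16.7 CPM in control and 2.57 and 2.59 CPM with auxin. Control and auxin libraries lay far apart, and the gene fell by 2.61 on the log2 scale (SE 0.15, adjusted p = 1.4e-09). Pax6, a patterning factor of the neural tube, was at 33.2 and 33.7 CPM in control and 11.2 and 11.5 CPM with auxin (log2 -1.56, SE 0.085, adjusted p = 7.94e-10). Nes, an intermediate filament of neural stem cells that other immature cells also make, was at 147 and 144 CPM in control and 119 and 128 CPM with auxin, a narrow gap without overlap (log2 -0.24, SE 0.073, adjusted p = 0.0211). Sox2, which ES cells and neural progenitors share, was at 36.2 and 37.7 CPM in control and 32.3 and 28.1 CPM with auxin (log2 -0.29, SE 0.082, adjusted p = 0.0136). The Nes call was lost when either control library or auxin replicate 1 was left out, at adjusted p of 0.0701 to 0.175, and the Sox2 call without control replicate 2, at 0.0995, or auxin replicate 2, at 0.202. All 4 markers were thus present in the day 6 control cells. In bulk RNA, fewer cells of a type and less RNA per cell cannot be told apart.

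All 33 neural progenitor genes were tested, and 25 fell, 2 rose and 6 did not pass, with a median log2 fold change of -0.995 against 0.01 over all genes. Rfx4, a winged-helix factor of neural progenitors and radial glia, was at 13.9 and 14.1 CPM in control and 0.334 and 0.254 CPM with auxin. That was the largest fall among the 15 named by size (log2 -5.55, SE 0.26, adjusted p = 1.67e-10). Pou3f2, a POU factor of neurogenesis, was at 21.2 and 20.1 CPM in control and 2.04 and 1.81 CPM with auxin (log2 -3.42, SE 0.12, adjusted p = 6.72e-12). Fgfbp3 went from 5.77 and 5.81 CPM to 0.652 and 0.29 CPM (log2 -3.60, adjusted p = 1.96e-08). Fabp7, a fatty acid binding protein of radial glia, was at 5.34 and 4.55 CPM in control, with 0.0334 and 0 CPM in the auxin libraries (adjusted p = 7.81e-07). The summed level of the list was 2414 and 2450 CPM in control and 1860 and 1834 CPM with auxin, a smaller gap than for most members that fell.

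Neural tube patterning genes divided. Of 38 tested, 18 fell, 8 rose and 12 did not pass, with a median of -0.39. Over all tested genes 15.2% fell and 14% rose. The genes given below are among the largest changes of the list, and none of the 8 that rose is among them. Olig2, which specifies motor neuron and oligodendrocyte progenitors, was at 6.38 and 6.24 CPM in control and 0.0668 and 0.0725 CPM with auxin, and Nkx6-1, a ventral progenitor factor, at 12.9 and 15.7 CPM in control and 1.34 and 1.16 CPM with auxin. Both pairs of groups were well separated, with log2 fold changes of -6.46 (SE 0.29, adjusted p = 1.01e-10) and -3.52 (SE 0.16, adjusted p = 9.9e-11). Dbx1 and Prdm12, which mark interneuron progenitor domains, were at 2.78 and 2.26 CPM and at 1.95 and 1.73 CPM in control. In auxin libraries Dbx1 was at 0.201 and 0 CPM and Prdm12 at 0.167 and 0.0725 CPM.

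Most proneural and neurogenic transcription factors fell. Of 29 tested among 32 listed, 22 fell, 3 rose and 4 did not pass, with a median log2 fold change of -1.59. Neurog2, a proneural basic helix-loop-helix factor, was at 6.51 and 6.00 CPM in control and 0.301 and 0.0725 CPM with auxin (log2 -5.02, SE 0.40, adjusted p = 5.58e-08). Nhlh2, a basic helix-loop-helix factor of newly born neurons, was at 14.0 and 15.5 CPM in control and 0.134 and 0.109 CPM with auxin (log2 -6.89, SE 0.25, adjusted p = 8.47e-12). The auxin libraries of both genes were near 0 and the control libraries far above them. Neurod4 went from 10.9 and 10.1 CPM to 0.234 and 0.0725 CPM, and Nhlh1 from 5.44 and 6.35 CPM to 0.201 and 0.145 CPM. Myt1, a zinc-finger factor of neuronal differentiation, was at 13.1 and 12.7 CPM in control and at 0.234 and 0 CPM with auxin.

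The list of homeodomain factors of postmitotic neurons, which also holds the enzyme gene Chat, was lower in part. Of 38 tested, 17 fell, 4 rose and 17 did not pass, with a median of -0.57. Lhx3 and Lhx4 specify motor neurons and V2 interneurons. Lhx3 was at 8.43 and 7.42 CPM in control and 0.635 and 0.217 CPM with auxin (log2 -4.19, SE 0.35, adjusted p = 9.66e-08), and Lhx4 fell by 4.14 on the log2 scale. Slc18a3, the vesicular acetylcholine transporter, was at 9.19 and 12.1 CPM in control and 0.668 and 0.58 CPM with auxin (log2 -4.09, SE 0.23, adjusted p = 1.35e-09). Chat, the enzyme that makes acetylcholine, was at 2.48 and 2.64 CPM in control and 0.0334 and 0.0906 CPM with auxin. Slc18a3, Chat, Lhx3 and Lhx4 were thus lower in every auxin library than in every control library. Groups did not overlap for 67.9% of all tested genes. Slc18a3 was chosen among genes with separated groups, and Chat, Lhx3 and Lhx4 as large changes among the called list members. By its coordinates Slc18a3 lies within Chat on the same strand, so the 2 cholinergic genes are not separate loci.

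Genes of young neurons were lower almost without exception. All 45 were tested, and 40 fell, 1 rose and 4 did not pass, with a median of -1.26. Tubb3, neuronal beta-tubulin, was at 72.2 and 79.6 CPM in control and 6.13 and 6.29 CPM with auxin (log2 -3.61, SE 0.099, adjusted p = 9.59e-13). Dcx, a microtubule-binding protein of migrating neurons, was at 52.9 and 52.6 CPM in control and 2.57 and 1.92 CPM with auxin (log2 -4.55, SE 0.13, adjusted p = 1.04e-12). Cntn2, an adhesion molecule of commissural and motor axons, was at 75.4 and 78.7 CPM in control and 3.91 and 3.88 CPM with auxin (log2 -4.31, SE 0.13, adjusted p = 1.04e-12). In all 3 genes the replicates lay close together and the groups far apart, though Dcx and Cntn2 were chosen among genes with separated groups. Elavl4, a neuronal RNA-binding protein, was at 18.9 and 21.2 CPM in control and 0.501 and 0.616 CPM with auxin (log2 -5.17, SE 0.17, adjusted p = 4.72e-12). Elavl3 fell by 3.43 on the log2 scale, Gap43, a growth cone protein, by 4.14, and Celf3, a neuronal splicing regulator, by 4.07. Exons of Celf3 overlap Riiad1 on the other strand, and whether the counting used strand is not given in the sources used here.

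**Figure D2:**
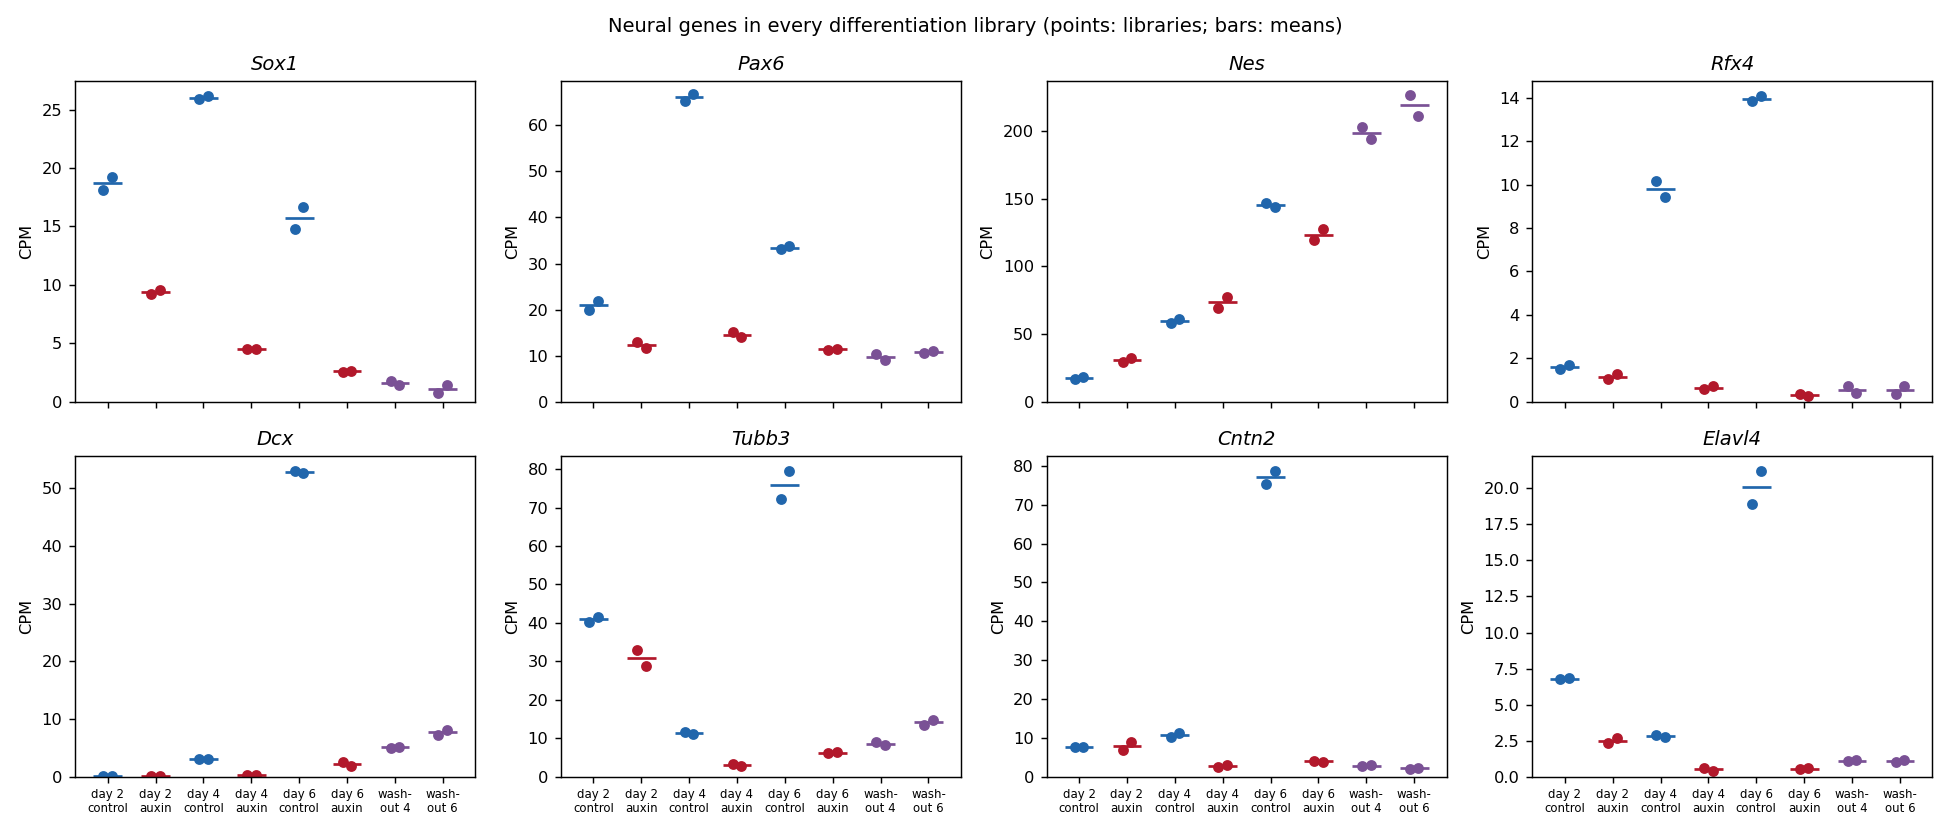
CPM (vertical axes, from 0) of 8 neural genes in each of the 16 differentiation libraries, by group, with points for libraries and bars for group means. Dcx, Tubb3, Cntn2 and Elavl4 are highest in day 6 control cells among the groups of day 4 and later, while Nes lies at 119 to 147 CPM in all 4 day 6 libraries.

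Synaptic and excitability genes and axon guidance genes also fell more often than they rose. Of 58 synaptic genes tested among 60, 35 fell, 5 rose and 18 did not pass, with a median of -1.04. Scg3, a granin of secretory vesicles, was at 8.64 and 8.94 CPM in control and 0.702 and 0.761 CPM with auxin (log2 -3.58, SE 0.22, adjusted p = 2.8e-09), and Rab3c, a synaptic vesicle GTPase, went from 3.50 and 4.16 CPM to 0.201 and 0.362 CPM. Of 47 axon guidance genes, 29 fell, 3 rose and 15 did not pass, with a median of -0.61. Dcc, the netrin receptor, was at 4.21 and 4.22 CPM in control and 0.267 and 0.236 CPM with auxin (log2 -4.05, SE 0.29, adjusted p = 1.72e-08). Epha3, an ephrin receptor, was at 16.1 and 14.0 CPM in control and 1.5 and 1.67 CPM with auxin (log2 -3.25, SE 0.16, adjusted p = 2.76e-10). Every auxin library of these 4 genes was below every control library, though groups did not overlap for 67.9% of all tested genes.

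Further genes with large falls were the following. Miat, a long noncoding RNA found in neural tissue, was at 22.3 and 18.9 CPM in control and 0.969 and 0.707 CPM with auxin (log2 -4.61, SE 0.19, adjusted p = 5.72e-11). Tmem132e, a membrane protein of the inner ear and brain, was at 35.6 and 33.8 CPM in control and 1.84 and 1.49 CPM with auxin (log2 -4.38, SE 0.15, adjusted p = 6.21e-12). Bak1, a mitochondrial effector of apoptosis, was at 58.0 and 61.4 CPM in control and 4.63 and 5.07 CPM with auxin. It had the smallest adjusted p of the genes named (log2 -3.62, SE 0.079, adjusted p = 5.08e-14), and its exons overlap those of Ggnbp1 on the other strand. Vtn, the matrix protein vitronectin, had a log2 fold change of -4.15, and Cdh8, a classical cadherin, of -3.78. Nsg2 and Stmn3, neuronal vesicle and microtubule proteins, had -3.94 and -3.91. Vcan, a large chondroitin sulfate proteoglycan, was at 228 and 222 CPM in control and 51.5 and 56.5 CPM with auxin (log2 -2.06, SE 0.16, adjusted p = 5.21e-08).

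Among called genes whose log2 CPM averaged at least 1, with separated groups and no predicted-gene symbol, the rise of Cyp1a1 was largest. Cyp1a1, a cytochrome P450 enzyme induced through the aryl hydrocarbon receptor, was at 0.628 and 0.922 CPM in control and 14.0 and 14.3 CPM with auxin (log2 4.17, SE 0.15, adjusted p = 8.47e-12). With all 24 libraries its adjusted p was 0.0718, the highest of a range that starts at 2.39e-123 without a filter on low counts. Of 11 tested targets of the receptor, 3 rose and 1 fell, beside 14% and 15.2% of all tested genes. Nqo1, a quinone reductase that the receptor and oxidative stress both induce, was at 29.1 and 28.7 CPM in control and 54.8 and 58.8 CPM with auxin. Cyp1b1, another target, was at 72.0 and 74.2 CPM in control and 47.5 and 50.8 CPM with auxin. Called members of this small list thus went in both directions, and the part of the receptor in these changes was not tested.

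Slc25a48, a mitochondrial carrier, was at 0.578 and 0.461 CPM in control and 8.10 and 7.52 CPM with auxin (log2 3.92, SE 0.25, adjusted p = 4.03e-09). Gsdma, a pore-forming gasdermin of epithelia, was at 1.65 and 1.05 CPM in control and 14.1 and 13.1 CPM with auxin (log2 3.35, SE 0.17, adjusted p = 3.75e-10). Fam110c was at 4.40 and 4.32 CPM in control and 29.9 and 29.3 CPM with auxin (log2 2.76, SE 0.095, adjusted p = 6.21e-12). In all 3, both auxin libraries were above both control libraries, as the rule that chose them requires. Dlx3, a homeobox factor of surface ectoderm, was at 0.992 and 0.894 CPM in control and 6.57 and 6.20 CPM with auxin (log2 2.76), and Atp4a, a proton pump subunit of the stomach, rose by the same amount on that scale. Aldh1a3, an enzyme that makes retinoic acid, was at 0.925 and 0.782 CPM in control and 4.36 and 4.97 CPM with auxin (log2 2.45, SE 0.22, adjusted p = 2.1e-07). Reps2, an endocytosis adaptor, rose by 2.54 (SE 0.18, adjusted p = 1.48e-08), and Radil, an effector of the GTPase Rap, by 2.42 (SE 0.091, adjusted p = 1.61e-11).

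Promoters of these genes were searched for AGGNGGCNC, a string within the core of the known CTCF motif in which N is any base, on both strands. The RefSeq windows cover 250 bases before to 50 bases after each start on build GRCm38.p6 and existed for 61.2% of tested genes. The string occurred in 14.4% of promoters of genes that rose, 15.5% of those that fell and 12.5% of those that did not pass, against 13.3% of all tested genes with a window. Among genes that changed at least 2-fold it occurred in 12.7% of those that rose and 14.1% of those that fell. Over all 27025 promoters in the table, untested genes included, the share was 9.38%. Among the genes named for the largest changes that have a window, it occurred in 2 of 12 that rose and 3 of 13 that fell. These 5 promoters are shown because they are the ones with a match, and the other 20 had none. The matched letters are in capitals, and each sequence runs 5′ to 3′ along each gene's strand.
Elavl4: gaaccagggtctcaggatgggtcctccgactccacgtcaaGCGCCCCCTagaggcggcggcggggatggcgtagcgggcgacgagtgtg
Tmem132e: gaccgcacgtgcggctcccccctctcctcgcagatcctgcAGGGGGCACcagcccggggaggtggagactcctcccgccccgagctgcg
Bak1: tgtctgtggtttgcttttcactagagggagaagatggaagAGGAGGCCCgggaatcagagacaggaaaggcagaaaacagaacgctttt
Radil: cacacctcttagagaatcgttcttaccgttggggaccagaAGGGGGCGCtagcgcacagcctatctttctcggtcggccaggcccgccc
Reps2: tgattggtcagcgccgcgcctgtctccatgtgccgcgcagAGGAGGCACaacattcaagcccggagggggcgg
The printed stretches, which are parts of the windows searched, are chr4:110351914-110352002 on the minus strand for Elavl4, chr11:82388758-82388846 on the plus strand for Tmem132e, chr17:27028764-27028852 on the minus strand for Bak1, chr5:142551226-142551314 on the minus strand for Radil and chrX:162643659-162643731 on the minus strand for Reps2. Elavl4 carries the string on the opposite strand, GCGCCCCCT, and the other 4 carry it in the direction of the gene. A match is a run of letters and not a measured binding site, and no match says only that these letters are not in the window.

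Pluripotency genes were higher with auxin. In the naive pluripotency list, 15 of 19 tested members were raised and 1 was lowered, with a median log2 fold change of 1.01. Esrrb, a nuclear receptor of naive ES cells, was at 38.3 and 39.3 CPM in control and 140 and 132 CPM with auxin (log2 1.81, SE 0.068, adjusted p = 1.44e-11). Dppa3, a maternal factor that protects DNA methylation marks, was at 10.5 CPM in both control libraries and 39.0 and 36.5 CPM with auxin (log2 1.84, SE 0.12, adjusted p = 3.92e-09). Auxin libraries were above control libraries without overlap in both, though groups did not overlap for 67.9% of all tested genes. In the core pluripotency list, 10 of 17 tested members were raised and 1 was lowered, with a median of 0.36. Pou5f1, the POU factor of pluripotency, was at 85.8 and 80.1 CPM in control and 175 and 170 CPM with auxin (log2 1.05, SE 0.072, adjusted p = 1.03e-08). Nanog was at 10.7 and 10.9 CPM in control and 19.8 and 20.4 CPM with auxin, and Zfp42 at 44.9 and 42.2 CPM in control and 86.2 and 82.4 CPM with auxin. Summed over the naive list, the level was 696 and 681 CPM in control and 1298 and 1272 CPM with auxin. The part that remaining undifferentiated cells play in these values was not tested.

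Germline genes rose almost as a block. Of 26 tested, 21 rose, 2 fell and 3 did not pass, with a median of 0.66. Stag3, a meiotic cohesin subunit, was at 32.5 and 30.1 CPM in control and 73.8 and 74.2 CPM with auxin (log2 1.24, SE 0.081, adjusted p = 6.12e-09). Its meiotic partner Smc1b was at 17.8 and 15.8 CPM in control and 34.7 and 36.5 CPM with auxin (log2 1.08, SE 0.08, adjusted p = 2.64e-08). Sycp2, a component of the synaptonemal complex, rose by 1.38, Tuba3a, a testis tubulin, by 1.35 and Tex101, a germ cell surface protein, by 2.16 on the log2 scale. Genes of the 2-cell-like state differed less: 3 of 24 tested rose and none fell in edgeR, with a median of 0.06, while 2 were lower at an unadjusted p below 0.05 and DESeq2 called 1 lower.

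**Figure D3:**
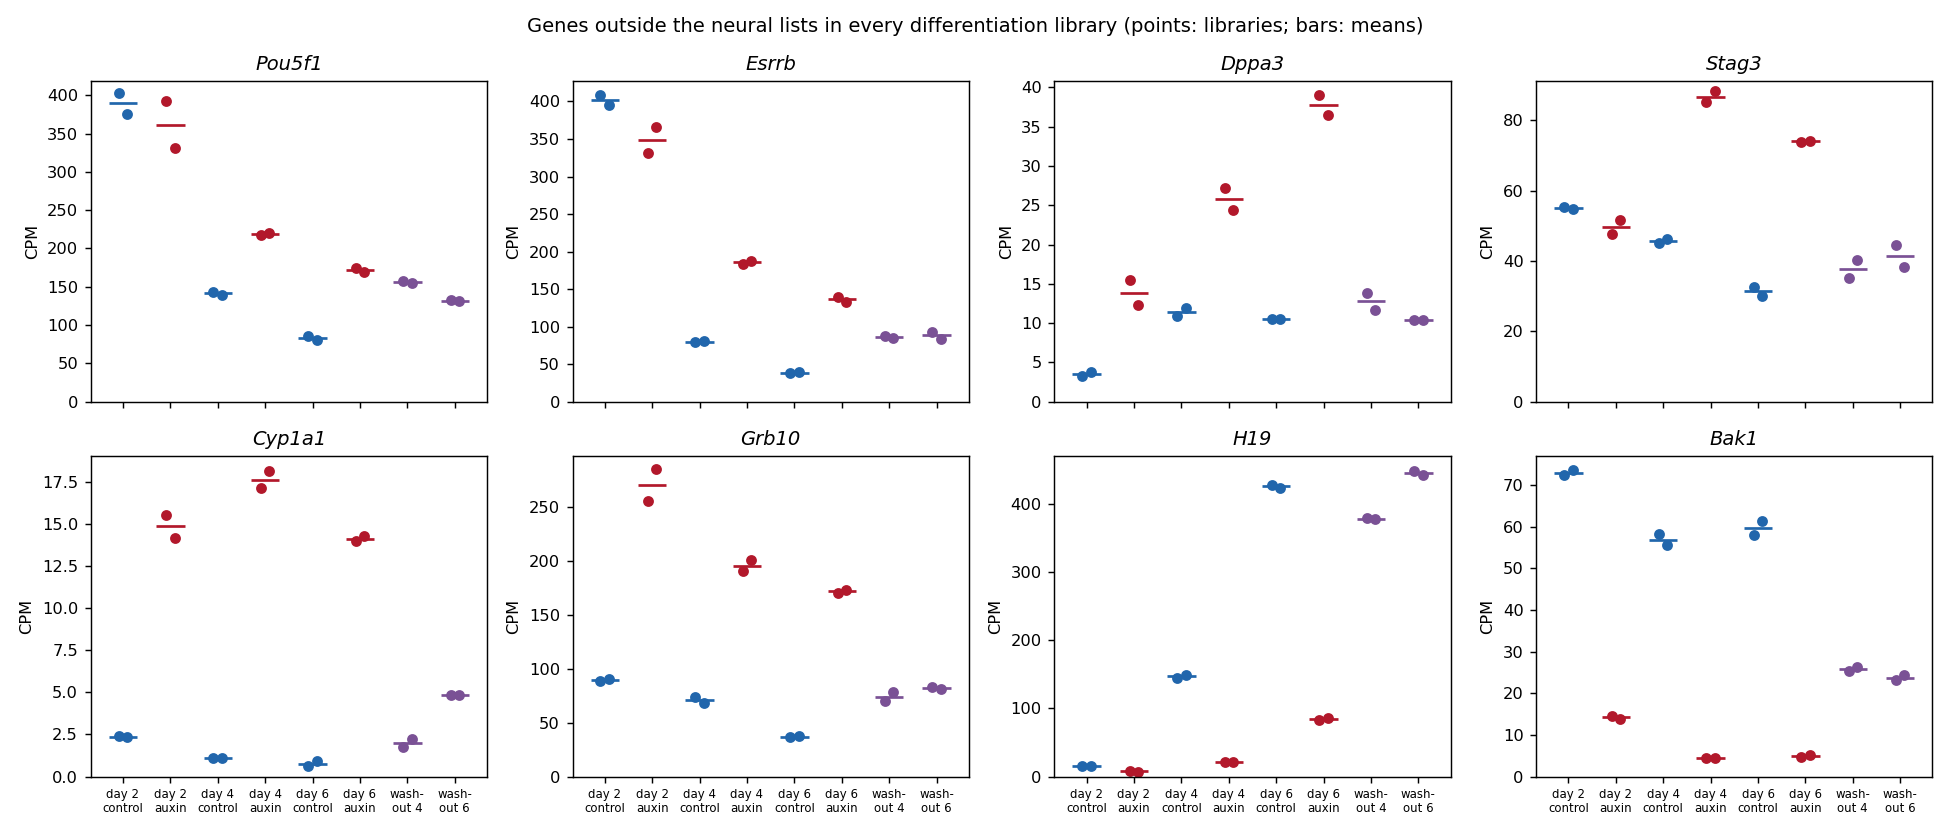
CPM (vertical axes, from 0) of 8 genes outside the neural lists in each of the 16 differentiation libraries, with points for libraries and bars for group means. On day 6 Pou5f1, Esrrb, Dppa3, Stag3, Cyp1a1 and Grb10 are higher with auxin than in control, while H19 and Bak1 are lower.

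Protocadherins, whose many isoforms give neurons their surface identity, were lower with auxin. Of 20 tested beta genes among 22, 17 fell and none rose, with a median of -2.78, and of 21 tested gamma genes among 22, 16 fell and none rose, with a median of -1.54. Pcdhb22 was at 9.50 and 9.27 CPM in control and 0.468 and 0.326 CPM with auxin (log2 -4.55, SE 0.25, adjusted p = 8.16e-10). Pcdhga7 was at 7.95 and 7.90 CPM in control and 0.418 and 0.816 CPM with auxin (log2 -3.69, SE 0.25, adjusted p = 1.05e-08). Beta genes summed to 35.2 and 34.0 CPM in control and 5.00 and 5.78 CPM with auxin, and gamma genes to 86.5 and 87.2 CPM against 38 and 37.9 CPM. Gamma genes share their constant exons, so reads on these cannot be assigned to a single gene. Of 11 tested protocadherins outside the clusters, 7 fell and 1 rose. Pcdh7 was at 9.11 and 9.57 CPM in control and 2.76 and 3.32 CPM with auxin (log2 -1.62, SE 0.15, adjusted p = 2.57e-07).

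Signalling pathways changed in mixed directions. Of 27 Notch genes, 14 fell and 2 rose. Dll1, a Notch ligand of progenitors that are becoming neurons, was at 7.75 and 6.72 CPM in control and 1.10 and 1.21 CPM with auxin (log2 -2.64, SE 0.16, adjusted p = 2.48e-09), and Hes5, a Notch target, was at 1.06 and 1.81 CPM in control and 0 and 0.0362 CPM with auxin. Of 18 hedgehog genes, 9 fell and 4 rose. Gli1, the transcriptional target that reports hedgehog signalling, was at 36.6 and 36.5 CPM in control and 10.4 and 11.7 CPM with auxin (log2 -1.73, SE 0.093, adjusted p = 6.76e-10), and the hedgehog-binding proteins Hhip and Boc fell by 2.03 and 1.72. In Dll1 and Gli1 the groups lay far apart, and exons of Gli1 overlap Arhgap9 on the other strand.

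Retinoic acid genes numbered 24, of which 13 fell and 7 rose. Crabp1, a retinoic acid binding protein, was at 19.6 and 19.7 CPM in control and 3.31 and 3.55 CPM with auxin (log2 -2.52, SE 0.14, adjusted p = 1.35e-09). Aldh1a2, the main embryonic enzyme for retinoic acid synthesis, was at 111 and 119 CPM in control and 42.4 and 45.4 CPM with auxin (log2 -1.39, SE 0.089, adjusted p = 5.35e-09). It fell while Aldh1a3 of the same family rose. Of 46 Wnt genes, 23 fell and 9 rose, with Wnt5b at 12.3 and 14.4 CPM in control and 3.84 and 4.04 CPM with auxin, and the R-spondin Rspo4 at 0.264 and 0.447 CPM against 3.76 and 3.79 CPM. Among 33 BMP and TGF-beta genes 10 rose and 10 fell: the ligand gene Bmp7 fell by 1.56 and the BMP-binding Bmper rose by 1.35 on the log2 scale. Of 28 FGF genes, 12 fell and 4 rose, with the feedback phosphatase Dusp6 at 48.5 and 54.6 CPM in control and 25.3 and 26.6 CPM with auxin.

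Hox genes set position along the body axis. Of 15 anterior Hox genes, 11 fell and 1 rose, with a median of -0.44, and of 24 posterior ones 8 fell and 6 rose, with a median of -0.04. Hoxc4 was at 38.2 and 42.1 CPM in control and 16.1 and 14.0 CPM with auxin (log2 -1.41, SE 0.11, adjusted p = 3.77e-08). Hoxc5, also in the anterior list, fell by 1.68 on the log2 scale. In the posterior list, Hoxc6 fell by 1.58 and Hoxb8 by 1.12. In the other direction, Hoxa13, the last gene of its cluster, was at 1.6 and 1.2 CPM in control and 6.03 and 6.51 CPM with auxin (log2 2.17, SE 0.16, adjusted p = 3.32e-08), and Hoxc13 rose by 1.36. Exons of Hoxc5 overlap those of Hoxc10 on the same strand.

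Imprinted genes showed large changes in both directions, with 7 rising and 17 falling of 42 tested. H19, a maternally expressed noncoding RNA whose locus has a well-known CTCF-bound imprinting control region, was at 427 and 424 CPM in control and 83.6 and 85.9 CPM with auxin (log2 -2.33, SE 0.066, adjusted p = 1.04e-12). Grb10, a growth-factor adaptor whose promoters are used in a parent- and tissue-specific way, was at 36.7 and 37.4 CPM in control and 170 and 173 CPM with auxin (log2 2.21, SE 0.072, adjusted p = 3.78e-12). Replicates of both genes were nearly equal. Magel2, a gene of the Prader-Willi region, fell by 1.52 and Ddc, the aromatic amino acid decarboxylase, by 1.20 on the log2 scale.

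Markers of other cell types did not move in a single direction. Of 27 endoderm genes, 8 rose and 8 fell, with summed levels of 3930 and 3629 CPM in control and 4134 and 4337 CPM with auxin. Sox17 was at 31.0 and 32.9 CPM in control and 52.9 and 48.0 CPM with auxin, while Foxa2 was at 39.6 and 41.3 CPM against 37.5 and 36.5 CPM and did not pass (adjusted p = 0.211), and Afp fell by 0.87 on the log2 scale. Endoderm transcripts were thus present in all 4 libraries. Of 30 mesenchyme and fibroblast genes, 12 fell and 8 rose, with sums of 2035 and 1954 CPM against 2000 and 2033 CPM. Col3a1 was at 294 and 288 CPM in control and 152 and 150 CPM with auxin, Col1a1 at 85.1 and 86.5 CPM against 68.5 and 59.8 CPM, and Lum at 12.5 and 11.7 CPM against 3.07 and 2.86 CPM. The Col1a1 call was lost without auxin replicate 2, at adjusted p = 0.0971. All 3 matrix genes fell although the sums of the list overlapped between groups.

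Of 26 muscle genes, 10 rose and 3 fell, with sums of 571 and 597 CPM in control and 1000 and 1002 CPM with auxin. Acta1, skeletal actin, was at 19.1 and 22.5 CPM in control and 58.2 and 56.2 CPM with auxin (log2 1.46, SE 0.10, adjusted p = 1.54e-08). Of 24 blood and endothelial genes, 6 rose and 6 fell, with sums of 143 and 140 CPM against 232 and 232 CPM. Pecam1, which ES cells make as well as endothelium, was at 20.6 and 21.8 CPM in control and 58.0 and 56.9 CPM with auxin, while the endothelial Cdh5 was at 2.21 and 2.77 CPM against 2.26 and 2.76 CPM and did not pass (adjusted p = 0.998). Ptprc, the pan-leukocyte marker, had at most 2 reads in any day 6 library and was not tested. Spi1, a myeloid and lymphoid factor, was at 0.165 and 0.363 CPM in control and 3.24 and 4.29 CPM with auxin.

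Of 19 neural crest genes, 8 fell and 5 rose, with sums of 133 and 132 CPM in control and 153 and 152 CPM with auxin. Its defining markers were low: Sox10 was at most 0.14 CPM in any day 6 library and did not pass (adjusted p = 0.972), and Foxd3 was at 0.694 and 0.615 CPM in control and 1.04 and 0.471 CPM with auxin (adjusted p = 0.656). Of 20 surface ectoderm genes, 7 rose and 3 fell, with sums of 911 and 876 CPM against 783 and 784 CPM, and of 17 glial genes, 4 rose and 4 fell, with 686 and 643 CPM against 829 and 850 CPM. These lists moved beside the fall of neural genes, and their part in that result was not tested.

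**Figure D4:**
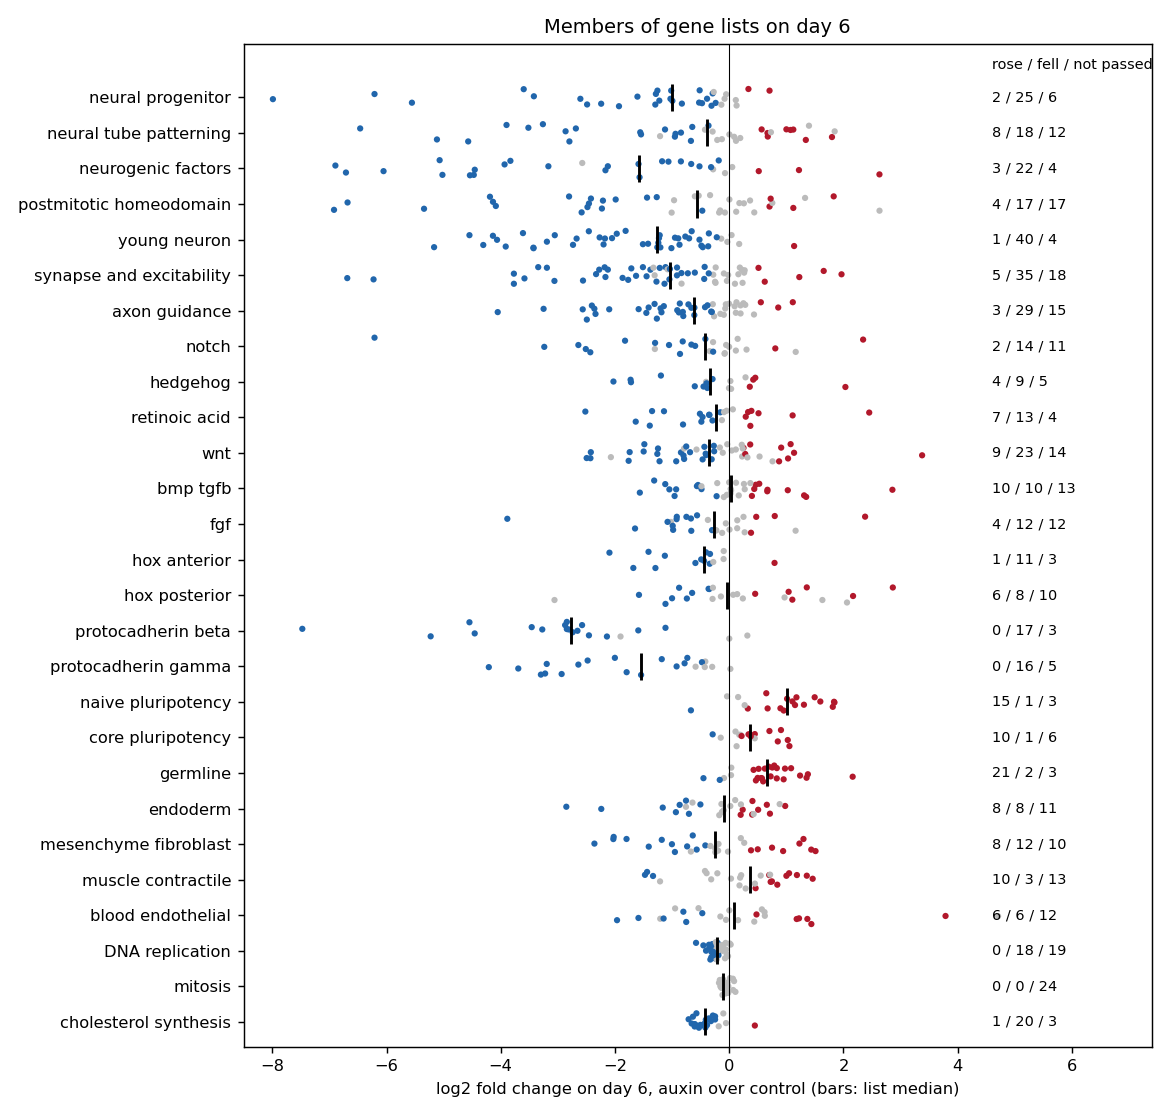
Log2 fold change on day 6 (horizontal axis) of each tested member of 27 gene lists, with red for genes that rose, blue for genes that fell, grey for genes that did not pass and a bar at each list's median. Medians lie below 0 in the neural and protocadherin lists, at 1.01 in naive pluripotency and near 0 in endoderm and blood.

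Genes of growth and metabolism fell more often than they rose, except for mitosis genes. Of 37 DNA replication genes, 18 fell and none rose, with a median of -0.22, and Uhrf1, a reader of newly replicated DNA, was at 318 and 319 CPM in control and 235 and 230 CPM with auxin (log2 -0.45, SE 0.054, adjusted p = 6.22e-06). In the list of 24 mitosis genes Mki67 was at 502 and 448 CPM against 484 and 541 CPM. None of the 24 was called by edgeR, 7 were lower at an unadjusted p below 0.05, and DESeq2 called 2 lower. Without the day 2 auxin libraries in the fit, 28 replication genes and 12 mitosis genes were called lower, beside 4705 of all 22326 genes tested in that fit. Of 24 cholesterol synthesis genes, 20 fell and 1 rose, with a median of -0.43, and Hmgcs1, an early enzyme of the pathway, was at 339 and 328 CPM in control and 202 and 205 CPM with auxin (log2 -0.71, SE 0.059, adjusted p = 9.9e-08). Of 26 glycolysis and hypoxia genes, 13 fell and 1 rose. The glucose transporter gene Slc2a1 was at 279 and 242 CPM in control and 139 CPM in both auxin libraries, while Adm, a hypoxia-induced peptide, rose by 1.26.

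The p53 target and stress-response lists had medians near 0. Over all tested genes 14% rose and 15.2% fell. Of 29 p53 targets, 8 rose and 3 fell, with a median of 0.02, and the death receptor gene Fas was at 4.26 and 4.64 CPM in control and 8.24 and 7.63 CPM with auxin. Of 25 stress-response genes, 7 rose and 4 fell, with a median of 0.01. Of 24 immediate early genes, 6 rose and 5 fell. Of 25 tested genes of the proteoglycan matrix, 11 fell and 7 rose, with a median of -0.44. Of 19 early mesoderm genes, 5 fell and 3 rose. Eomes, a T-box factor of the primitive streak, was at 11.1 and 11.3 CPM in control and 42.4 and 44.9 CPM with auxin (log2 1.96, SE 0.075, adjusted p = 1.8e-11).

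The day 6 effect was then compared with those on days 2 and 4, which share no library with it. Auxin raised 2659 genes on day 4 and lowered as many, 11.8% of tested genes each way, and on day 2 it raised 2222 (9.84%) and lowered 1904 (8.43%). Of the 947 genes that rose at least 2-fold on day 6, 561 had also risen on day 4 (59.2%) and 315 on day 2 (33.3%). Of the 1085 that fell at least 2-fold, 609 had fallen on day 4 (56.1%) and 242 on day 2 (22.3%). A test of the difference between the day 6 and day 4 effects called 463 genes whose day 6 effect was higher (2.05%) and 495 whose effect was lower (2.19%). That total of 958 rose to 2491 without the day 2 auxin libraries and fell to 506 to 559 when 1 day 4 or day 6 library was left out. Against day 2, 1601 genes had a higher effect (7.09%) and 1836 a lower effect (8.13%).

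Some neuronal genes had a lower effect on day 6 than on day 4. In the young neuron list 27 of 45 genes had a lower effect and none a higher effect, and in the synaptic list 12 of 58 and none. Stmn2, a neuronal tubulin regulator, was at 6.08 and 6.46 CPM in control and 6.89 and 5.73 CPM with auxin on day 4, and at 32.0 and 34.6 CPM against 3.14 and 3.04 CPM on day 6. Its effect was lower by 3.43 on the log2 scale (difference -3.43, SE 0.16, adjusted p = 2.55e-09). Control libraries were higher on day 6 than on day 4, and auxin libraries were lower. On day 2 Stmn2 was at 90.7 and 87.7 CPM in control and 75.6 and 65.3 CPM with auxin. It fell there too, by less (log2 -0.34, SE 0.088, adjusted p = 0.0121). Aldh1a2 changed direction: with auxin it was higher on day 4, at 39.0 and 39.2 CPM against 10.5 and 11.9 CPM in control, and lower on day 6 (difference -3.19, SE 0.13, adjusted p = 1.18e-09). Ngfr, the p75 neurotrophin receptor, also rose on day 4 and fell on day 6 (difference -3.04, SE 0.21, adjusted p = 6.85e-07).

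The effect was higher on day 6 than on day 4 for 9 of 19 naive pluripotency genes and 7 of 25 stress-response genes. Slc7a11, the cystine transporter, was at 7.52 and 8.63 CPM in control and 3.79 and 4.10 CPM with auxin on day 4, and at 2.56 and 3.02 CPM against 6.65 and 6.69 CPM on day 6 (difference 2.28, SE 0.23, adjusted p = 1.79e-05). Trib3, a pseudokinase induced by amino acid stress, had a difference of 1.93 (SE 0.14, adjusted p = 6.85e-07). Both fell on day 4 and rose on day 6. Osr1, a factor of intermediate mesoderm and mesenchyme, fell on both days, by 3.90 on day 4 and by 1.80 on day 6, so its positive difference of 2.10 marks a smaller fall. Bak1, by contrast, was lower by 3.66 on day 4 and by 3.62 on day 6 on the log2 scale.

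**Figure D5:**
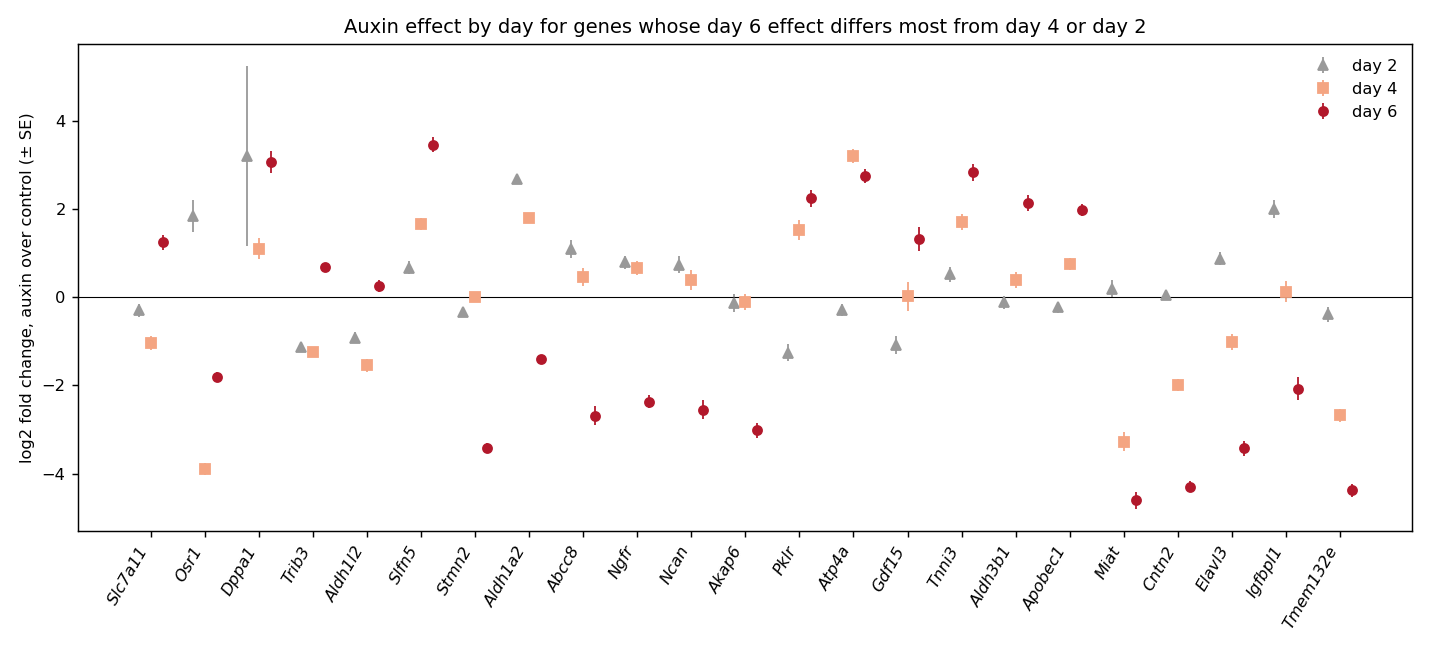
Log2 fold change of auxin over control with its SE (vertical axis) on days 2, 4 and 6 for the 23 genes named because their day 6 effect differed most from that on day 4 or day 2. Stmn2, Akap6 and Abcc8 are at about -0.34 or above on days 2 and 4 and below -2.5 on day 6. Slc7a11 and Trib3 cross from below to above 0.

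Genes that untreated cells change with stage were found on both sides. Between days 2 and 4 control cells raised 6147 genes (27.2%) and lowered 5610 (24.8%), in libraries that the day 6 comparison does not use. Of the raised genes, 23.7% fell and 19.5% rose with auxin on day 6, and of the lowered genes, 19.1% rose and 15.7% fell. Seen from the day 6 lists, stage-raised genes made up 42.5% of the genes that fell and 38% of those that rose. Stage-lowered genes made up 33.9% of those that rose and 25.6% of those that fell.

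Levels in the washout groups are set beside those of day 6 without a test. A comparison with either day 6 group would share its libraries with the comparison that chose these genes. The day 6 washout was harvested 2 days after day 6, and the series holds no control of that stage. Stage and auxin removal cannot be told apart in it. Among counts of 1 to 20, 59.6% to 60.5% were even in washout libraries, against 65.9% to 72.2% in the other differentiation libraries. The cause was not tested. Of the 947 genes that rose at least 2-fold, the mean lay between the day 6 control and auxin means for 729 in the day 4 washout and 642 in the day 6 washout. Of the 1085 that fell, it lay between them for 748 and 657, and at or past the auxin mean for 189 and 236 and at or past the control mean for 148 and 192. The genes that rose were at or past the control mean for 121 and 150 and at or past the auxin mean for 97 and 155. H19 was near the control level, at 378 and 445 CPM on average in the day 4 and day 6 washouts. Bak1 lay between, at 25.8 and 23.8 CPM, as did Cdh8, at 5.84 and 4.59 CPM. Rfx4, at 0.553 and 0.546 CPM, Cntn2, at 2.79 and 2.16 CPM, and Sox1 were near or below the day 6 auxin level. Cyp1a1, at 1.98 and 4.82 CPM, was closer to day 6 control.

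Genes that changed were next to a gene called the same way more often than genes that did not pass were next to such a gene. The nearest tested neighbour had also risen for 22.2% of 3043 genes that rose, against 12.4% of genes that did not pass. It had also fallen for 22.3% of 3352 genes that fell, against 14.3%. Neighbours with overlapping exons were not left out. Runs of at least 4 adjacent tested genes with a change of 2-fold or more in the same direction were found at 11 places (coordinates from GENCODE, build GRCm38.p6). On chromosome 18 they comprised the protocadherin genes, in runs of 8 and 9 beta genes and 9 gamma genes. Pou3f3, a POU factor of neural progenitors, and its noncoding neighbours Pantr1 and Pantr2 fell together at chr1:41781808-42713454. Pou3f3 was at 25.3 and 26.7 CPM in control and 5.83 and 5.15 CPM with auxin (log2 -2.24, SE 0.15), and Pantr1 at 4.50 and 5.10 CPM against 0.902 and 0.435 CPM. The call of Pantr2, at most 0.28 CPM in any day 6 library, was lost when any of 3 libraries was left out, at adjusted p of 0.0593 to 0.0757.

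In the other direction, Pou5f1 rose together with H2-Q6, H2-Q7 and H2-Q10, genes of the major histocompatibility complex beside it, at chr17:35424850-35510772. H2-Q10 was at 1.42 and 0.95 CPM in control and 6.32 and 5.75 CPM with auxin, and near-identical copies in this family can share reads. Hoxa11 and Hoxa13 rose with 2 further genes between and beside them at chr6:52242106-52260880, and Ndn and Magel2, of the Prader-Willi region, fell on chromosome 7. Ndn was at 77.6 and 83.3 CPM in control and 36.3 and 38.7 CPM with auxin. Median lengths of protein-coding genes were 25.4 kb for all that fell, 29.2 kb for all that rose and 20.7 kb for those that did not pass. At a change of 2-fold or more the order of the called genes was the other way, with 35.5 kb for those that fell, 20.8 kb for those that rose and 11.7 kb for those that did not pass.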

How the data were processed

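RNA was sequenced on an Illumina HiSeq4000 from total RNA, per the labels' protocols. The authors deposited counts, whole numbers of reads per gene with 1 column per library and no normalization. STAR, HTSeq, edgeR and the mm10 build are named, per the submitters' processing notes. Versions and annotation release: not given in the sources used here, nor is the use of strand in counting. Exons of 32 of the 229 genes named by rule overlap those of another tested gene. For 21 of them an overlap is on the other strand, among them Aldh1l2, Pcdh7, Prdm12 and Slc2a1. The header joins both day 6 control names by spaces and was split at white space. The table holds 51697 named genes. Another 1 line carries neither name nor counts and entered neither library totals nor tests.

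Genes were kept by filterByExpr (minimum count 10, minimum total 15), which left 22587. TMM scaling was applied to the 16 differentiation libraries, which were fitted with 1 mean per group in edgeR 4.0.16 (limma 3.58.1, R 4.3.3), with quasi-likelihood F tests and Benjamini-Hochberg adjustment over all genes. ES libraries were left out of the fit because their replicates differ more. The common dispersion was 0.0051. CPM is a count per 1000000 of the scaled library. The SE is the size of the log2 fold change over the square root of F. The script was tested on simulated counts with planted changes. Replicate numbers did not pair the samples.

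Gene lists and their members were chosen with earlier results of these data known, and are described by counts and medians, with no set test. Named genes were Ctcf and Vcan, the 15 largest called changes each way among genes whose log2 CPM averaged at least 1, with groups that do not overlap and no predicted-gene symbol, up to 5 members of each list, and the 6 largest differences each way between days. Markers that define cell types, and genes in adjacent runs, were added after values were seen. A few genes covered by it are not reported here. Gene coordinates are from GENCODE, matched by symbol for 95.3% of tested genes, and promoter sequences from RefSeq, both on build GRCm38.p6. Alternatives were other scalings, filters, thresholds, library sets, a replicate block, halved counts and DESeq2 1.42.0.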

Additional observations from a re-analysis of the deposited data

Results flagged for a closer look

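The auxin effect on day 6 differed from that on other days for many genes, by a test of the difference itself in edgeR's quasi-likelihood fit. Between days 6 and 4 the difference passed for 958 genes. The effect was higher on day 6, on the log2 scale, for Slc7a11 by 2.28, Osr1 by 2.10, Dppa1 by 1.97, Trib3 by 1.93, Aldh1l2 by 1.80 and Slfn5 by 1.79. For Dppa1, control libraries were at 1.10 and 1.54 CPM and auxin libraries at 3.06 and 2.68 CPM on day 4. The effect was lower on day 6, with a difference of -3.43 for Stmn2, -3.19 for Aldh1a2, -3.15 for Abcc8, a potassium channel regulator, -3.04 for Ngfr, -2.95 for Ncan, a brain proteoglycan, and -2.91 for Akap6. None of these last 6 fell on day 4, and all fell on day 6.

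Between days 6 and 2 the difference passed for 3437 genes, and here the 2 day 2 auxin libraries stood apart from each other. Without replicate 2 of that group 7630 genes passed, and without replicate 1 4350. The effect was higher on day 6 by 3.50 for Pklr, a pyruvate kinase whose exons overlap Hcn3 on the other strand, 3.05 for Atp4a, 2.40 for Gdf15, 2.32 for Tnni3, cardiac troponin I, 2.26 for Aldh3b1 and 2.21 for Apobec1. It was lower, with differences of -4.81 for Miat, -4.36 for Cntn2, -4.31 for Elavl3, -4.08 for Aldh1a2, -4.08 for Igfbpl1 and -3.99 for Tmem132e.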

How the results depend on the processing

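With the spread estimated from all 24 libraries, 1564 genes were called on day 6, 30 for day 6 minus day 4 and 330 for day 6 minus day 2, and 63 of 223 called genes named by rule lost their call. Without the day 2 auxin libraries, an alternative chosen after seeing the data, 9047 genes were called on day 6 and 2491 for day 6 minus day 4. Fits of the compared groups alone called 8976, 2653 and 2130. At adjusted p below 0.01 the counts were 4525, 447 and 1946. Leaving out 1 library gave 4630 to 4785, 506 to 559 and 2373 to 7630, the last without day 2 auxin replicate 2. The libraries left out from days 2 and 4 were also added after seeing the data. Upper-quartile scaling put 52.4% of day 6 calls higher against 48% and shifted the median of all genes to 0.03. With all counts halved 6763 genes were called on day 6; among counts of 1 to 20, 65.9% to 67.1% were even in the day 6 libraries, and the cause was not tested. DESeq2 called 6661, 1263 and 3781.

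A replicate block gave 6461 calls on day 6, 849 and 3281. Deviations of same-numbered libraries correlated at -0.12 to 0.077 over 28 pairs of groups, so the numbers do not mark a pairing. None of the 223 called genes named by rule reversed in an alternative that tested it, and 158 kept their call in every alternative that did. Among all genes called both in the main fit and in an alternative, none changed sign. With the shorter string AGGNGGC, 46.2% of promoters of genes that rose and 46.1% of those that fell held a match, against 42.7% of tested genes. At 2-fold or more the shares were 41.1% and 44.7%. In the 100 bases before the start they were 6.3% and 7.48%, against 5.66% of tested genes. With neighbours within 100 kb only, 22.9% and 22.1% of called genes had one called the same way.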
